A study of Mus musculus with 6 samples.

Results

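The genes described here are 10 genes of antigen presentation, taken by gene symbol out of the 21878 genes of a bulk RNA sequencing series. They are the class I heavy chain genes H2-K1 and H2-D1, the class I light chain gene B2m, the peptide transport and loading genes Tap1, Tap2 and Tapbp, the immunoproteasome subunit genes Psmb8, Psmb9 and Psmb10, and the class II invariant chain gene Cd74. Prefrontal cortex of 6 mice was sequenced, 3 per group, with no sorting of its cells. Gls1_CamkIIaCre mice were mosaic heterozygotes of genotype CamKIIαCre;Gls1+/flox, in which Cre made by forebrain CamKIIα-positive neurons acts on 1 floxed allele. Control mice were littermates of genotype CamKIIαCre;Gls1+/+, so every mouse of both groups carried the Cre transgene. The control samples bear the genotype tag WT. Homozygous floxed mice with Cre were not viable, and the age of the mice is not given in the labels. Library totals lay between 17987807 and 19330961 counts. The 10 genes together had 4987, 4215 and 4653 counts in Gls1_CamkIIaCre libraries and 8730, 6147 and 6105 counts in control libraries.

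Class I molecules carry short peptides from inside the cell to its surface, where CD8 T cells read them. Proteasomes cut proteins into these peptides, the Tap1 and Tap2 transporter pumps them into the endoplasmic reticulum, and tapasin, the product of Tapbp, holds empty class I molecules beside the transporter until a peptide binds. Interferon exchanges the constitutive catalytic subunits of the proteasome for the immunoproteasome subunits, and in healthy brain class I genes are known from vessels, microglia and, at lower levels, neurons. Class II molecules, whose assembly needs the invariant chain Cd74, are made mainly by professional antigen-presenting cells.

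The sequences below show what the described genes carry just before their transcription start, since the regulatory motifs of this family are well known. All are from RefSeq, build GRCm38.p6, read 5′ to 3′ on the strand of the gene. The first pair gives 30 bases of H2-K1 (chr17:34000429-34000458, minus strand) and of H2-D1 (chr17:35262923-35262952, plus strand), with GGGGATTCCCC, the palindrome of the class I enhancer that binds NF-κB family proteins, and AGTTTCACTTC, the class I interferon consensus, in capitals.
H2-K1: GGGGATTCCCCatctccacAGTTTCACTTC
H2-D1: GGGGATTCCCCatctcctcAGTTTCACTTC
The pair was identical at 29 of 30 bases and differed at 1. B2m (chr2:122147437-122147685, plus strand) is shown over 249 bases, with an interferon response type match, GAAANNGAAA, in capitals. Psmb8 (chr17:34198088-34198117, plus strand) is shown over 30 bases, with a gamma interferon activation type match, TTCNNNGAA, in capitals.
B2m: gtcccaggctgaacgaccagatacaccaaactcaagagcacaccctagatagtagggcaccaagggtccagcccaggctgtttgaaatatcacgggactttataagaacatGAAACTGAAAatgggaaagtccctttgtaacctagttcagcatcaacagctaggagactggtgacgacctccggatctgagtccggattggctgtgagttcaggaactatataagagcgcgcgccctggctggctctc
Psmb8: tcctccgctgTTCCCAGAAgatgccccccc

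Motifs were searched on both strands of windows of 300 bases, which reached from 250 bases before a RefSeq start to 50 bases after it. Windows of 8 of the 10 genes were searched. None was at hand for Tap2, and Cd74, on chromosome 18, was left out of the search. The class I motifs GGGGATTCCCC and AGTTTCACTTC were read from the H2-K1 window, so their matches in H2-K1 were fixed in advance. GGGGATTCCCC was found in H2-K1 and H2-D1 and in 0.0305% of 32817 promoter windows, or 10 windows, among them those of this pair. In H2-K1 it began 111 and 125 bases before the gene's 2 listed starts, and in H2-D1 it began 171 bases before the start. AGTTTCACTTC was found in the same pair of genes and in 0.0518% of all windows. GAAANNGAAA was found in B2m, where it began 139 bases before the start, and in 3.43% of all windows. TTCNNNGAA was found in Psmb8, where it began 97 bases before the start, and in 8.29% of all windows. CCAAT, the core letters of the NF-Y site, was found in B2m, H2-D1, H2-K1, Psmb9, Tap1 and Tapbp, 6 of the 8 genes, and in 37.4% of all windows. The windows of Psmb9 and Tap1 overlap, and the matches of this pair are the same bases, so 1 site is counted for both genes. No match of one motif overlapped a match of another in these windows. A match of letters is a description and not a bound site. Other transcripts start further upstream for some of these genes. The H2-D1 and Psmb8 stretches lie in an exon of another GENCODE M21 transcript, and the H2-K1 stretch lies inside the full RefSeq span of its gene.

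The comparison asks how cortical gene expression differs between mice with and without the floxed Gls1 allele, with Cre present in both. All 10 genes passed the filter on low counts, and all 10 had negative log2 fold changes (Gls1_CamkIIaCre over control), with a median of -0.62 against -0.0024 over the 14440 genes tested. Tap1, Psmb8 and Tapbp fell past the threshold, an adjusted p under 0.05 by edgeR's quasi-likelihood test with Benjamini-Hochberg adjustment over all tested genes, and none rose. That is 3 of 10 genes, beside 619 of 14440 genes called lower (4.29%), 571 called higher (3.95%) and 1190 called in either direction (8.24%). At an unadjusted p under 0.05 the count was 8 of 10, all lower, beside 1626 of 14440 genes lower at that threshold (11.3%). DESeq2 called 6 of the 10 lower, beside 3.26% of all genes. These were H2-K1, H2-D1, B2m, Tap1, Psmb8 and Cd74, and not Tapbp. With limma voom 3 were called, Tap1, Tapbp and Psmb8, beside 3.86%. The number called was 1 without Gls1_CamkIIaCre replicate 1, beside 2.71% of genes called lower, and 5 without control replicate 1, beside 3.06%. The genes were chosen by their function with their fold changes in this same comparison known, so these counts describe them and carry no further weight. In bulk tissue, fewer cells of a type and less RNA per cell cannot be told apart.

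**Figure D1:**
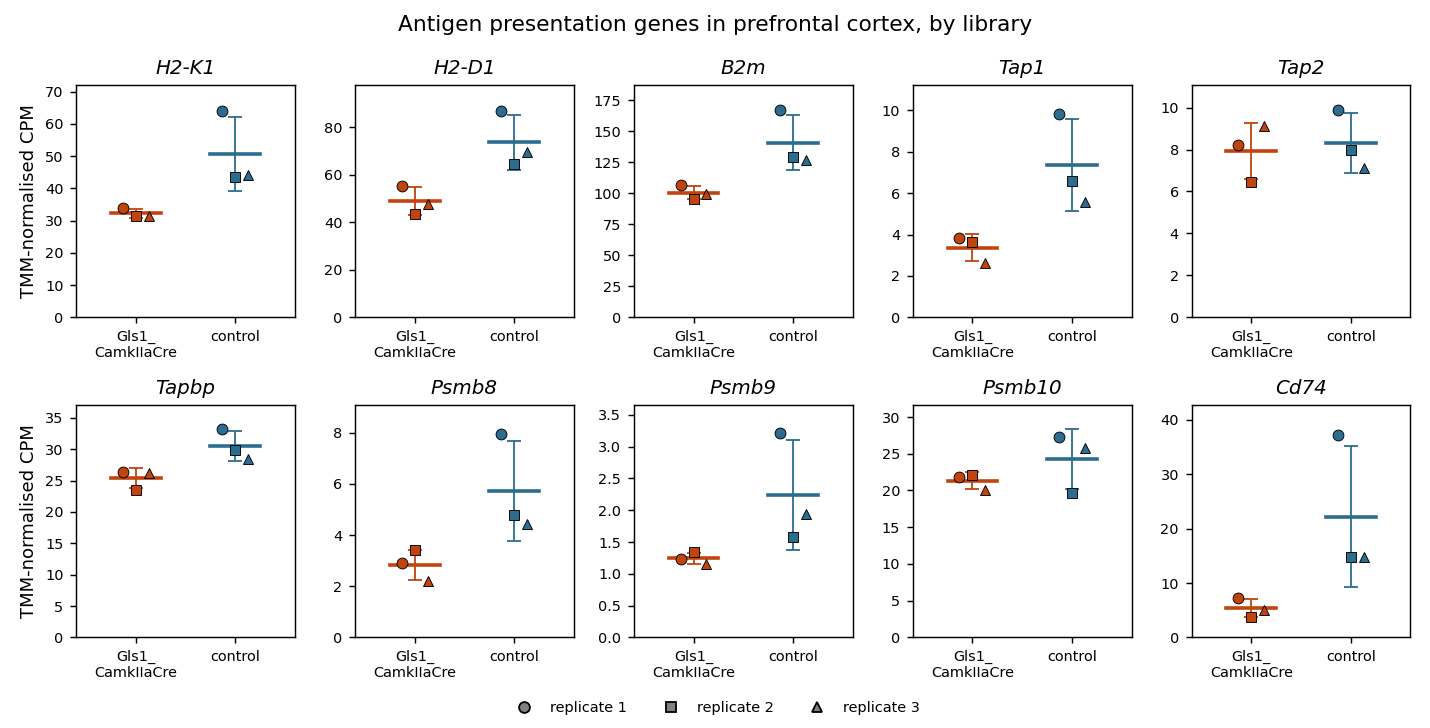
TMM-normalised CPM (linear axes from 0) of the 10 genes in the 3 Gls1_CamkIIaCre libraries (left, orange) and the 3 control libraries (right, blue). Points are libraries, horizontal lines are means and bars are SD. Control replicate 1 is the highest library in every panel, and the groups overlap for Tap2 and Psmb10.

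Levels per library are in CPM, reads of a gene relative to the size of its library, with TMM scaling. Tap1, a subunit of the transporter that moves peptides into the endoplasmic reticulum, had 3.86, 3.62 and 2.64 CPM in Gls1_CamkIIaCre libraries, against 9.85, 6.60 and 5.6 CPM in control libraries. Every Gls1_CamkIIaCre library lay below every control library, and control replicate 1 stood above the rest. Tap1 averaged 3.37 ± 0.647 CPM in Gls1_CamkIIaCre and 7.35 ± 2.22 CPM in control (SD, n = 3 each), and fell 2.19-fold (log2 fold change -1.13 ± 0.21 SE, edgeR adjusted p = 0.00414). Its call held without each library in turn, with adjusted p up to 0.0329.

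Tap2, the other subunit of the transporter, had 8.19, 6.46 and 9.12 CPM in Gls1_CamkIIaCre and 9.90, 7.96 and 7.10 CPM in control. The groups overlapped, with Gls1_CamkIIaCre replicate 3 above control replicates 2 and 3. The log2 fold change was -0.07 ± 0.147 (SE, edgeR adjusted p = 0.834), with a 95% interval of -0.38 to 0.24. Whether Tap1 and Tap2 differ in their fold change was not tested, and 12.1% of the 50-base stretches of Tap2 also occur in another gene. Tapbp, which encodes tapasin, had 26.3, 23.6 and 26.3 CPM in Gls1_CamkIIaCre and 33.2, 29.9 and 28.4 CPM in control. All 3 control libraries were above the Gls1_CamkIIaCre libraries, by a narrow margin for control replicate 3. Tapbp fell 1.2-fold (log2 fold change -0.26 ± 0.0745 SE, edgeR adjusted p = 0.0326). The adjusted p of Tapbp was 0.0542 without Gls1_CamkIIaCre replicate 1, 0.169 without Gls1_CamkIIaCre replicate 2, 0.172 without control replicate 1 and 0.0746 without control replicate 2. Tapbp shares 22.4% of its 50-base stretches with other genes, mainly Gm19412.

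Among the immunoproteasome genes, Psmb8 encodes the chymotrypsin-like subunit that takes the place of Psmb5. Psmb8 had 2.89, 3.40 and 2.21 CPM in Gls1_CamkIIaCre and 7.96, 4.77 and 4.41 CPM in control, which were 42 to 61 counts a library in Gls1_CamkIIaCre and 82 to 156 counts in control. No library of one group reached into the range of the other. Psmb8 averaged 2.83 ± 0.594 CPM in Gls1_CamkIIaCre and 5.71 ± 1.95 CPM in control (SD, n = 3 each), and fell 2.02-fold (log2 fold change -1.02 ± 0.231 SE, edgeR adjusted p = 0.0123). Its adjusted p was 0.0578 without Gls1_CamkIIaCre replicate 1 and 0.0636 without control replicate 1. Psmb9, the counterpart of Psmb6, was the gene with the fewest reads, 23, 24 and 22 counts in Gls1_CamkIIaCre and 63, 30 and 36 counts in control. These were 1.23, 1.34 and 1.16 CPM in Gls1_CamkIIaCre and 3.22, 1.57 and 1.94 CPM in control. The CPM ranges stayed apart, while in the authors' FPKM values control replicate 2 fell below all 3 Gls1_CamkIIaCre libraries. The log2 fold change of Psmb9 was -0.85 ± 0.297 (SE, edgeR adjusted p = 0.0829). Psmb10, the counterpart of Psmb7, had 21.8, 22.1 and 20.0 CPM in Gls1_CamkIIaCre and 27.3, 19.7 and 25.8 CPM in control. Control replicate 2 was the lowest of the 6 libraries, so the groups overlapped. Psmb10 had a log2 fold change of -0.19 ± 0.102 (SE, edgeR adjusted p = 0.303) and an interval of -0.40 to 0.03, with an adjusted p of 0.0359 without control replicate 2.

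Each immunoproteasome subunit was set against the constitutive subunit whose place it takes, as a ratio of the authors' FPKM values within a library, a scale that accounts for gene length. Psmb8 stood at 3.13%, 3.39% and 2.14% of Psmb5 in Gls1_CamkIIaCre and at 6.65%, 4.04% and 3.77% in control. The 2 groups did not overlap. Psmb9 stood at 1.39%, 1.73% and 1.39% of Psmb6 in Gls1_CamkIIaCre and at 3.64%, 1.05% and 2.66% in control, with control replicate 2 lowest of all. Psmb10 stood at 12.7%, 13.5% and 10.3% of Psmb7 in Gls1_CamkIIaCre and at 14.5%, 10.4% and 12.2% in control, so its groups overlapped, with control replicate 1 above all other libraries. The mean of Psmb8 over Psmb5 was 2.89 ± 0.660% in Gls1_CamkIIaCre and 4.82 ± 1.59% in control (SD, n = 3 each). That of Psmb9 over Psmb6 was 1.51 ± 0.198% in Gls1_CamkIIaCre and 2.45 ± 1.31% in control, and that of Psmb10 over Psmb7 was 12.2 ± 1.66% in Gls1_CamkIIaCre and 12.4 ± 2.07% in control. No test was run on these ratios. An exact permutation test of 3 against 3 mice cannot go below 0.10.

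**Figure D2:**
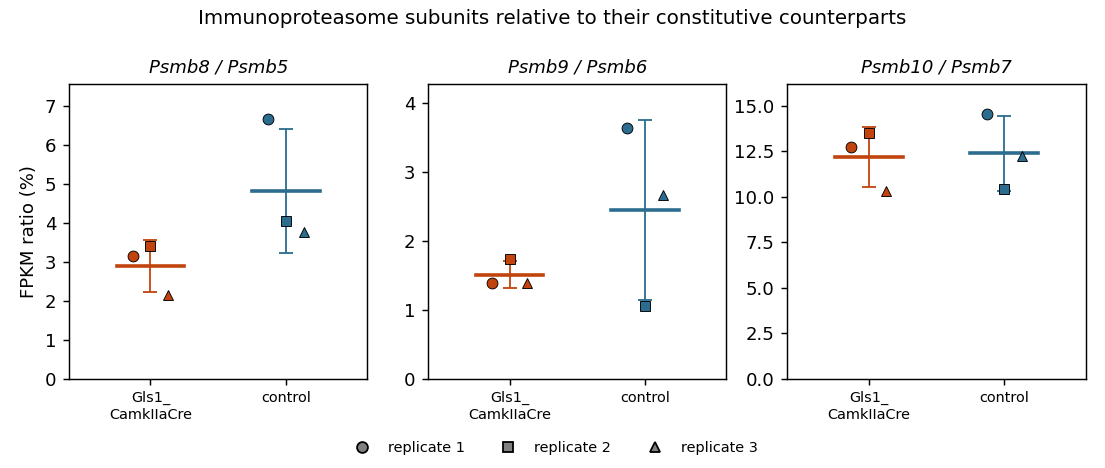
Ratio of the FPKM value of each immunoproteasome subunit gene to that of its constitutive counterpart (percent, linear axes from 0) in Gls1_CamkIIaCre (left, orange) and control (right, blue) libraries. Points are libraries, lines are means and bars are SD. The groups do not overlap for Psmb8 over Psmb5 and overlap in the other panels.

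H2-K1, a classical class I heavy chain that presents peptides to CD8 T cells, had 33.9, 31.4 and 31.4 CPM in Gls1_CamkIIaCre, against 63.9, 43.5 and 44.2 CPM in control. The 3 Gls1_CamkIIaCre libraries lay close together, below all control libraries. The log2 fold change was -0.65 ± 0.178 (SE), and the gene did not pass with all libraries (edgeR adjusted p = 0.109). Without control replicate 1 its log2 fold change was smaller, -0.44, and its adjusted p was 0.000412. H2-D1, the second classical heavy chain, had 55.3, 43.4 and 47.8 CPM in Gls1_CamkIIaCre and 86.6, 64.3 and 69.6 CPM in control. Again no library of one group lay within the range of the other. Its log2 fold change was -0.59 ± 0.149 (SE, edgeR adjusted p = 0.0881), with adjusted p of 0.00561 without control replicate 1 and 0.0433 without control replicate 2. Of the 50-base stretches of their transcripts, 6.87% in H2-K1 and 13.9% in H2-D1 also occur in another gene, so a part of their reads could have been counted elsewhere.

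B2m, the light chain shared by all class I molecules, was the most abundant of the 10 genes and shared no such stretch. It had 106, 95.7 and 99.6 CPM in Gls1_CamkIIaCre and 167, 129 and 127 CPM in control. All 3 Gls1_CamkIIaCre libraries lay below the control libraries. B2m averaged 101 ± 5.38 CPM in Gls1_CamkIIaCre and 141 ± 22.4 CPM in control (SD, n = 3 each), with a log2 fold change of -0.49 ± 0.124 (SE, edgeR adjusted p = 0.0881), and its adjusted p was 0.000315 without control replicate 1. Per length, H2-K1 stood at 8.26%, 8.61% and 7.56% of B2m FPKM in Gls1_CamkIIaCre and at 10.3%, 8.60% and 8.54% in control. H2-D1 stood at 22.7%, 20.0% and 20.7% of B2m FPKM in Gls1_CamkIIaCre and at 24.1%, 22.3% and 24.4% in control. The heavy chain to light chain ratios of the groups overlapped for both genes.

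Cd74, the invariant chain that guides class II molecules to the compartments where they load peptide, had the widest spread among control libraries relative to its mean. It had 7.18, 3.84 and 5.11 CPM in Gls1_CamkIIaCre, against 37.1, 14.7 and 14.7 CPM in control. Each control library held more than each Gls1_CamkIIaCre library, and control replicate 1 stood far above the other 2 controls. Means were 5.38 ± 1.68 CPM in Gls1_CamkIIaCre and 22.2 ± 12.9 CPM in control (SD, n = 3 each), a 4.12-fold difference that did not pass by edgeR (log2 fold change -2.04 ± 0.575 SE, adjusted p = 0.135). Its interval was -3.60 to -0.49. Without control replicate 1 the log2 fold change was -1.45 and the adjusted p was 0.00017. Cd74 stood at 173%, 113% and 175% of H2-Aa FPKM, a class II chain gene, in Gls1_CamkIIaCre, and at 186%, 188% and 187% in control. Against H2-Ab1, another class II chain gene, it stood at 170%, 134% and 194% in Gls1_CamkIIaCre and at 193%, 211% and 218% in control. The groups overlapped for the H2-Ab1 ratio, and neither ratio was tested.

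Control replicate 1 held the highest level of all 10 genes. Relative to the mean of control replicates 2 and 3, it stood at 2.52 for Cd74, 1.83 for Psmb9, 1.73 for Psmb8, 1.62 for Tap1 and 1.45 for H2-K1, and between 1.14 for Tapbp and 1.31 for Tap2 for the other 5 genes. On the same scale the Gls1_CamkIIaCre libraries stood at 0.488, 0.261 and 0.348 for Cd74, and at 0.632, 0.594 and 0.432 for Tap1. For H2-K1 they stood at 0.772, 0.716 and 0.715. The lowest library was Gls1_CamkIIaCre replicate 2 for 5 genes, Gls1_CamkIIaCre replicate 3 for 4 genes and control replicate 2 for Psmb10. In all, 8 of the 10 genes had every Gls1_CamkIIaCre library below every control library in CPM, which 13.6% of all tested genes also had, and 7 of 10 did so in FPKM, as did 18% of all tested genes. Without control replicate 1 the median log2 fold change of the 10 genes was -0.45.

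**Figure D3:**
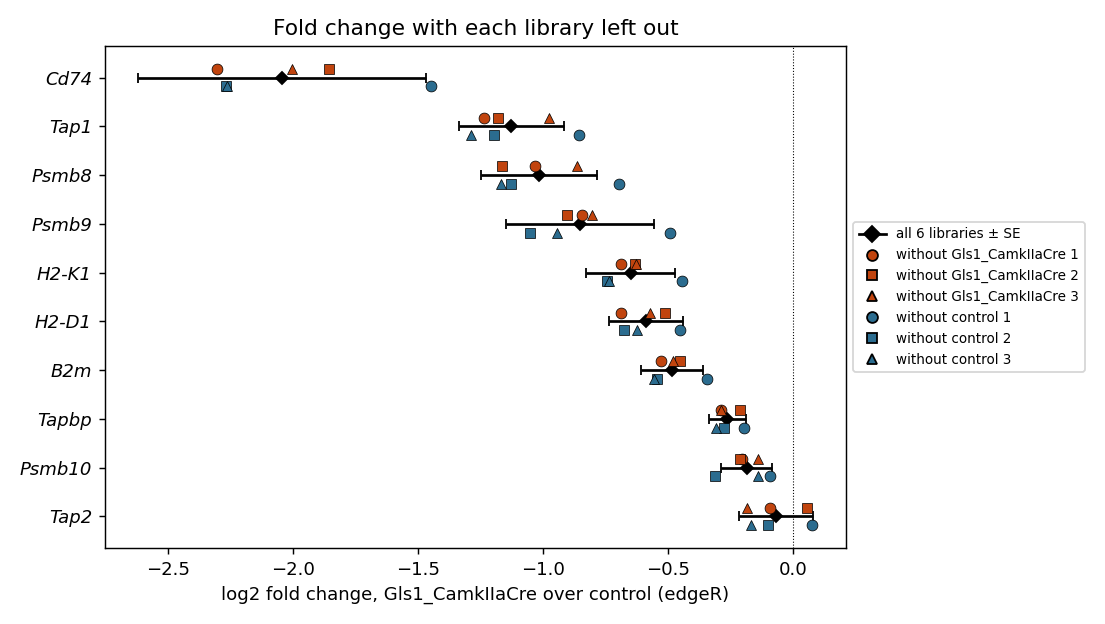
Log2 fold change (Gls1_CamkIIaCre over control, edgeR) of each of the 10 genes with all 6 libraries (black diamond, bar ± SE) and with each library left out in turn. Leaving out control replicate 1 (blue circle) gives the value nearest 0 or above 0 for each gene, and Tap2 is the gene whose value changes sign.

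On the FPKM scale, which allows genes to be compared per length, the light chain B2m stood first in Gls1_CamkIIaCre at 115.4 ± 6.25 FPKM, before the heavy chains H2-D1 at 24.4 ± 2.90 and H2-K1 at 9.39 ± 0.650 FPKM (SD, n = 3, as for all levels here). Tapbp at 8.36 ± 0.414 and Psmb10 at 7.51 ± 0.804 FPKM followed, then Tap2 at 3.12 ± 0.466, Cd74 at 2.81 ± 1.01 and Psmb8 at 2.28 ± 0.501 FPKM. Tap1 at 1.04 ± 0.271 and Psmb9 at 0.892 ± 0.0805 FPKM came last. Neighbours overlapped for Tapbp and Psmb10, for Tap2 and Cd74, for Cd74 and Psmb8, and for Tap1 and Psmb9. In control B2m at 161.9 ± 23.9, H2-D1 at 38.2 ± 6.51 and H2-K1 at 14.9 ± 3.90 FPKM also led. Next were Cd74 at 11.9 ± 7.38, Tapbp at 10.4 ± 0.900 and Psmb10 at 8.42 ± 1.2 FPKM. Psmb8 at 4.48 ± 1.53, Tap2 at 3.42 ± 0.612, Tap1 at 2.38 ± 0.795 and Psmb9 at 1.64 ± 0.898 FPKM closed the order. There the libraries of neighbours stayed apart for B2m and H2-D1, for H2-D1 and H2-K1, and for Psmb10 and Psmb8. Cd74 ranked 7 in Gls1_CamkIIaCre and 4 in control.

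Of 20 other class I and class I-like genes, 13 were tested, 4 fell and none rose, with a median log2 fold change of -0.42. H2-Q7, a nonclassical heavy chain, had 0.803, 0.891 and 0.633 CPM in Gls1_CamkIIaCre and 4.34, 2.46 and 1.35 CPM in control (log2 fold change -1.81 ± 0.391 SE, edgeR adjusted p = 0.0103). H2-T23, which encodes Qa-1 and presents leader peptides to NK cell receptors, averaged 12.6 ± 0.998 CPM in Gls1_CamkIIaCre and 20.5 ± 4.85 CPM in control (-0.71, edgeR adjusted p = 0.0236). H2-Q4 averaged 6.76 ± 0.851 CPM in Gls1_CamkIIaCre and 12.9 ± 4.21 CPM in control (-0.94, edgeR adjusted p = 0.0436). Without Gls1_CamkIIaCre replicates 1, 2 and 3 in turn the adjusted p was 0.0517, 0.0587 and 0.0508 for H2-Q7, 0.101, 0.0694 and 0.0929 for H2-T23, and 0.086, 0.169 and 0.151 for H2-Q4, which left 1 of the 4 genes called each time. The gene that held was Fcgrt, the neonatal Fc receptor, with 13.5 ± 0.351 CPM in Gls1_CamkIIaCre and 18 ± 0.849 CPM in control (-0.42, edgeR adjusted p = 0.00538). H2-Q4, H2-Q7 and H2-T23 share 39.2%, 34.9% and 29.8% of their 50-base stretches with other genes, so their separate values are uncertain.

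**Figure D4:**
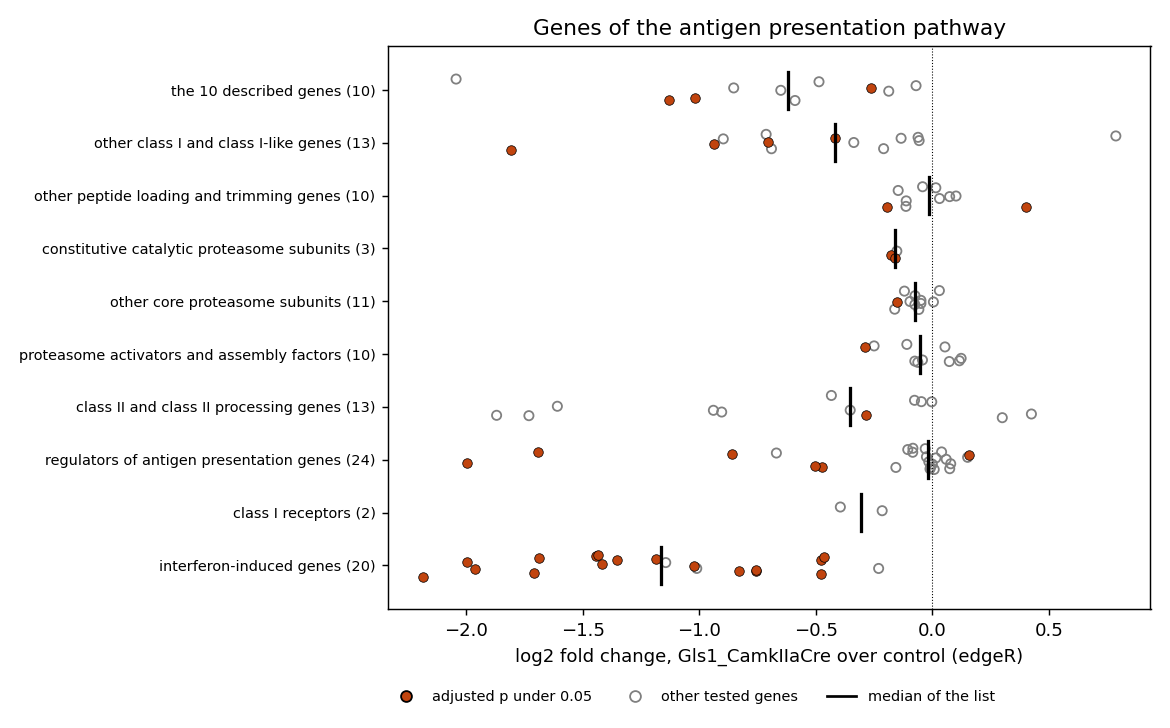
Log2 fold change (Gls1_CamkIIaCre over control, edgeR) of every tested gene of the 10 described and of the lists around them, with the number of tested genes in brackets. Filled points have an adjusted p under 0.05 and black bars are medians. The interferon-induced list holds the most filled points (17 of 20), and the medians of the peptide loading and proteasome lists lie between -0.16 and -0.014.

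Around the transporter work chaperones and peptidases that load or trim peptides. Of 10 other peptide loading and trimming genes, 1 rose and 1 fell, with a median log2 fold change of -0.014. Lnpep, an aminopeptidase that trims peptides in endosomes, rose, with 93.1, 91.7 and 90.7 CPM in Gls1_CamkIIaCre and 65.1, 70.9 and 72.6 CPM in control (0.40 ± 0.0497 SE, edgeR adjusted p = 7.6e-05). Calr, the calreticulin chaperone of the loading complex, fell, with 274 ± 8.52 CPM in Gls1_CamkIIaCre and 313 ± 7.36 CPM in control (-0.19, edgeR adjusted p = 0.00437). Both calls held without each library in turn.

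Of the 3 constitutive catalytic subunits, which make up the standard proteasome, 2 fell. Psmb5 averaged 60.3 ± 1.5 CPM in Gls1_CamkIIaCre and 68.2 ± 2.55 CPM in control (-0.18, edgeR adjusted p = 0.0346), and Psmb7 104 ± 2.64 CPM in Gls1_CamkIIaCre and 116 ± 4.83 CPM in control (-0.16, edgeR adjusted p = 0.0303). Psmb6 did not pass, with a log2 fold change of -0.15 (edgeR adjusted p = 0.0827). None of the 3 passed without Gls1_CamkIIaCre replicate 1 (adjusted p = 0.125 for Psmb5 and 0.0896 for Psmb7), Gls1_CamkIIaCre replicate 2 (0.0945 and 0.144), control replicate 1 (0.139 and 0.0501) or control replicate 2 (0.109 and 0.166), and without Gls1_CamkIIaCre replicate 3 Psmb5 had an adjusted p of 0.0519. Psmb5 shares 54.1% and Psmb7 28.1% of 50-base stretches with other genes. Of 11 other core subunits 1 fell, Psmb4 (-0.15, edgeR adjusted p = 0.0491), which did not pass without Gls1_CamkIIaCre replicates 2 (0.238) or 3 (0.104) or without control replicates 1 (0.151), 2 (0.106) or 3 (0.0765). Of 10 activators and assembly factors 1 fell, Pomp, the maturation protein needed to assemble both kinds of proteasome, with 72.8 ± 1.66 CPM in Gls1_CamkIIaCre and 89.0 ± 3.80 CPM in control (-0.29, edgeR adjusted p = 0.00104). Pomp passed without each library in turn. Psme1 and Psme2, the interferon-inducible activator subunits, did not pass, with log2 fold changes of -0.04 and -0.25 (edgeR adjusted p = 0.788 and 0.149). The medians of these 3 lists were -0.16, -0.075 and -0.053.

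Among 16 class II and class II processing genes, 13 were tested, 1 fell, none rose, and the median log2 fold change was -0.35. H2-Aa, the alpha chain partner of H2-Ab1, had 3.27, 2.56 and 2.0 CPM in Gls1_CamkIIaCre and 15.9, 6.65 and 6.03 CPM in control. As for Cd74, control replicate 1 stood high and the groups did not overlap. H2-Aa, H2-Ab1 and H2-Eb1 had log2 fold changes of -1.87, -1.73 and -1.61 and did not pass by edgeR (adjusted p = 0.136, 0.205 and 0.214). H2-Ab1 had an adjusted p of 0.0166 without control replicate 1, where 3 genes of the list were called. The gene called was Ctss, the protease that trims the invariant chain, with 73.8 ± 1.69 CPM in Gls1_CamkIIaCre and 89.8 ± 10.8 CPM in control (-0.28, edgeR adjusted p = 0.0263). Ctss did not pass without Gls1_CamkIIaCre replicates 1 (0.102), 2 (0.126) or 3 (0.0625) or without control replicates 1 (0.0595) or 2 (0.0663).

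Nlrc5 is the transactivator that drives class I genes, B2m, Tap1 and Psmb9, and it fell. It had 1.71, 1.28 and 1.16 CPM in Gls1_CamkIIaCre and 6.79, 3.51 and 3.12 CPM in control, with every Gls1_CamkIIaCre library below every control library and control replicate 1 highest. The log2 fold change was -1.69 ± 0.303 (SE, edgeR adjusted p = 0.00348), and Nlrc5 passed without each library in turn, with adjusted p up to 0.0484. Ciita, the class II transactivator, was too low to test, at 0.321, 0.111 and 0.0527 CPM in Gls1_CamkIIaCre and 0.612, 0.262 and 0.538 CPM in control. Of 24 tested regulators of antigen presentation genes, 5 fell and 1 rose, with a median of -0.021. The interferon regulatory factors among those that fell were Irf7 (1.39 ± 0.290 CPM in Gls1_CamkIIaCre and 5.53 ± 2.83 CPM in control, edgeR adjusted p = 0.0189), Irf8 (3.78 ± 0.161 CPM in Gls1_CamkIIaCre and 6.85 ± 1.8 CPM in control, 0.00511), Irf9 (8.90 ± 0.829 CPM in Gls1_CamkIIaCre and 12.6 ± 2.87 CPM in control, 0.0349) and Irf1 (6.42 ± 0.881 CPM in Gls1_CamkIIaCre and 8.88 ± 1.29 CPM in control, 0.0431). Jak1, a kinase of interferon receptors, rose (log2 fold change 0.16, edgeR adjusted p = 0.0305).

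Among these regulators Nlrc5 and Irf8 kept their calls without any 1 library. Without Gls1_CamkIIaCre replicates 1, 2 and 3 in turn, 3, 2 and 2 regulators were called, and the adjusted p was 0.0782, 0.0891 and 0.0765 for Irf7, 0.0512, 0.156 and 0.118 for Irf9, and 0.103, 0.0638 and 0.153 for Irf1. Without control replicate 1 it was 0.193 for Irf9 and 0.208 for Irf1, and without control replicate 2 it was 0.0993 for Irf1. Jak1 did not pass without Gls1_CamkIIaCre replicates 2 (0.121) or 3 (0.108) or control replicates 1 (0.119) or 2 (0.132).

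All 20 interferon-induced genes on the list were tested, 17 fell and none rose, with a median log2 fold change of -1.17. Irf7 is on this list as well as among the regulators, so its fall is counted in both. Isg15, a ubiquitin-like modifier, had 1.02, 0.836 and 0.580 CPM in Gls1_CamkIIaCre and 4.44, 2.15 and 2.91 CPM in control (-1.96, edgeR adjusted p = 0.000928). Bst2, the tetherin that holds virus particles at the cell surface, fell (-1.42, edgeR adjusted p = 0.000567), and so did Ifit1, which binds viral RNA (-1.44, edgeR adjusted p = 0.00118). Ifit3b (-0.83), Lgals3bp (-0.76) and Ifi27 (-0.48) had edgeR adjusted p of 0.000633, 0.000734 and 0.00112. These 6 genes passed without each library in turn. The number called on the list was 11, 10 and 10 without Gls1_CamkIIaCre replicates 1, 2 and 3. No interferon gene on the list of 6 was abundant enough to test, and Ifnb1, Ifna2 and Ifna4 had 0 counts in every library, which allows up to 0.153 to 0.167 CPM (3 counts in a library, for counting error only). The genes listed as class I receptors, or as their signalling chains, were also scarce. Of these 8, 2 were tested, with 0 called by edgeR, DESeq2 or limma voom and 0 at an unadjusted p under 0.05. The tested genes, Pirb and Lilrb4a, share 37.3% and 94.5% of their 50-base stretches with other genes, so their values are uncertain.

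Of the 10 genes, 7 lie on chromosome 17 within 1348020 bases (chr17:33919478-35267497, GRCm38.p6), the span between Tapbp and H2-D1 in the mouse major histocompatibility region. Psmb9 (chr17:34182030-34187330, minus strand) and Tap1 (chr17:34187556-34197225, plus strand) stand head to head with 225 bases between them. Psmb8 (chr17:34198195-34201454, plus strand) follows Tap1 after 969 bases, and Tap2 (chr17:34204479-34216321, plus strand) follows Psmb8 after 3024 bases. The 4 neighbours had log2 fold changes of -0.85, -1.13, -1.02 and -0.07 in map order. H2-K1 (chr17:33996012-34000619, minus strand) lies 181410 bases before Psmb9, and H2-D1 (chr17:35263094-35267497, plus strand) 1046772 bases beyond Tap2. Tapbp is at chr17:33919478-33929290 (plus strand), B2m at chr2:122147687-122153082 (plus strand) and Psmb10 at chr8:105935728-105938392 (minus strand), and Cd74 is on chromosome 18.

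Other genes of the same span were read beside these 7. Cell type marker lists were left aside here, so the microglia marker Aif1 counts as an other gene. Among 55 tested protein-coding genes of the span that are on none of the remaining lists, 1 fell and none rose. The gene that fell was the complement gene C4b (log2 fold change -0.68), and the median was -0.054. Among the 14 tested genes of the span that are on such a list, Tapbp, Tap1 and Psmb8 fell and the median was -0.88. These 14 include the 7 described genes, which were chosen with their fold changes known and which hold all 3 calls. The rest, H2-Oa, H2-DMa, H2-DMb1, H2-DMb2, H2-Ab1, H2-Aa and H2-Eb1, did not pass. Tap1 and Psmb9 share 6.27% and 9.71% of their 50-base stretches, mostly with each other. The use of strand is not given in the sources used here, and GENCODE transcripts of the pair overlap, so reads there could have gone to either. The span of B2m overlaps that of Patl2 and has the same limit.

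**Figure D5:**
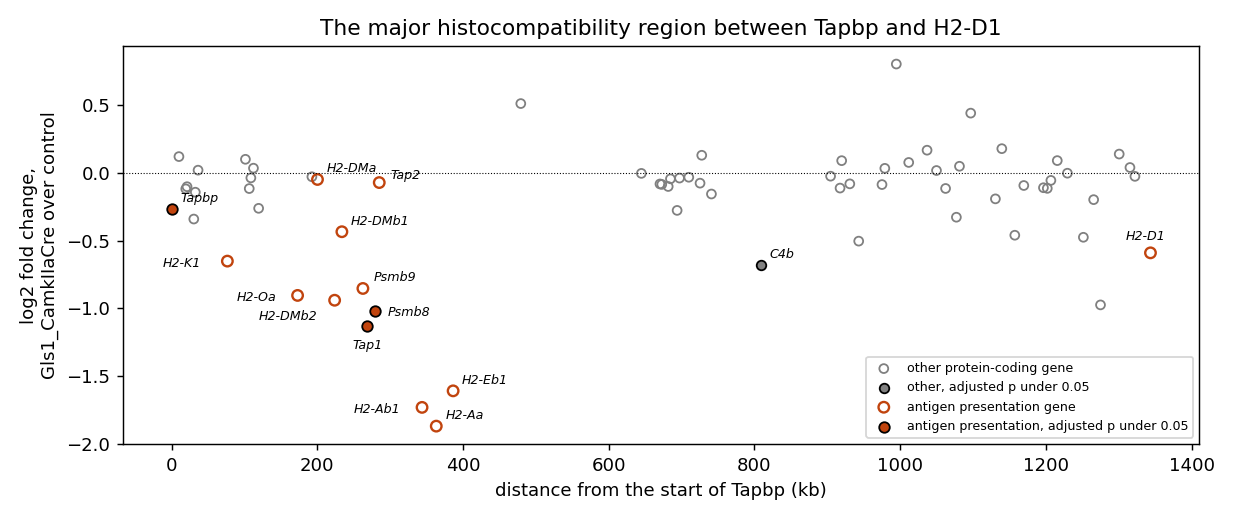
Log2 fold change (Gls1_CamkIIaCre over control, edgeR) of tested protein-coding genes between Tapbp and H2-D1, by distance from the start of Tapbp in kilobases. Orange points are genes of the antigen presentation lists and grey points are other genes, filled where the adjusted p is under 0.05. Grey points lie mostly near 0, and C4b is the filled grey point.

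The mean profile of the 10 genes over the 6 libraries, with each gene's log2 CPM standardised, was set against 13722 other genes of at least 1 CPM. Nearest in Euclidean distance were H2-Q4 (0.276), Frat1 (0.290), Mfap2 (0.308), H2-Ab1 (0.313) and Phax (0.314). Within the 10 genes, H2-K1 lay nearest the mean profile (0.188) and Tap2 farthest (2.18), followed by Psmb10 (1.67). Frat1, a regulator of Wnt signalling, had 12.3, 11.3 and 11.3 CPM in Gls1_CamkIIaCre and 17.9, 13.3 and 13.5 CPM in control, and did not pass (edgeR adjusted p = 0.0579). Standardising removes the size of a difference, and Phax, an adaptor for RNA export, had a log2 fold change of only -0.10.

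Markers of the cells that could carry these transcripts were read from the same libraries. Their part in the differences of the 10 genes was not tested. Microglia markers summed to 428 to 444 CPM in Gls1_CamkIIaCre and 437 to 480 CPM in control, and none of the 10 passed by edgeR, DESeq2 or limma voom, with 3 at an unadjusted p under 0.05, as had 22.4% of all genes tested. Border macrophage markers summed to 27.2 to 34.3 CPM in Gls1_CamkIIaCre and 28.8 to 30.8 CPM in control, and none of 7 tested passed by any of these tools or at an unadjusted p under 0.05. Excitatory neuron markers, which define the labelled cortex, summed to 5106 to 5632 CPM in Gls1_CamkIIaCre and 4940 to 5183 CPM in control. None of these 5 passed by edgeR (3 at an unadjusted p under 0.05), and 1 was called higher by DESeq2 and by limma voom.

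Endothelial cells are a further source of class I transcripts in brain. Of 10 endothelial markers 3 fell (323 to 335 CPM in Gls1_CamkIIaCre and 345 to 373 CPM in control, summed), and of 9 mural markers 5 fell (259 to 282 CPM in Gls1_CamkIIaCre and 294 to 336 CPM in control). Of 9 meningeal fibroblast markers 7 fell (140 to 162 CPM in Gls1_CamkIIaCre and 186 to 205 CPM in control). Of 8 astrocyte markers 3 fell (1413 to 1475 CPM in Gls1_CamkIIaCre and 1494 to 1534 CPM in control), and of 8 oligodendrocyte markers 3 fell (3070 to 3522 CPM in Gls1_CamkIIaCre and 3374 to 3999 CPM in control). Of 5 erythroid markers 2 fell (58.0 to 75.6 CPM in Gls1_CamkIIaCre and 76.1 to 90.6 CPM in control). Markers of striatum, a neighbouring region, summed to 314 to 363 CPM in Gls1_CamkIIaCre and 798 to 1334 CPM in control, and 11 of 13 fell.

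Lymphocyte transcripts were close to the limit of detection. T cell markers summed to 1.89 to 2.58 CPM in Gls1_CamkIIaCre and 6.23 to 10.4 CPM in control. Cd3e, a chain of the T cell receptor complex, had 0 counts in all Gls1_CamkIIaCre libraries and 0.408, 0.314 and 0.108 CPM in control. The groups overlapped for its sister chains, with 0, 0.0557 and 0.264 CPM of Cd3d in Gls1_CamkIIaCre and 0.051, 0.157 and 0.215 CPM in control, and 0.268, 0 and 0.105 CPM of Cd3g in Gls1_CamkIIaCre and 0.102, 0.21 and 0.108 CPM in control. Cd8a had 0.107, 0 and 0.158 CPM in Gls1_CamkIIaCre and 0.408, 0.21 and 0.323 CPM in control. Its groups did not overlap, at 0 to 8 counts a library. Cd4 had 0.696, 1.00 and 0.896 CPM in Gls1_CamkIIaCre, where the T cell sums were 2.41, 1.89 and 2.58 CPM. In control it had 3.16, 8.17 and 6.19 CPM, beside sums of 6.23, 10.4 and 8.72 CPM. Cd4 fell (edgeR adjusted p = 0.00147) and was the 1 marker called of 2 T cell markers tested. Both had negative log2 fold changes and an edgeR unadjusted p under 0.05, as had 22.4% of all genes tested in either direction. Among controls Cd4 was highest in replicate 2, as was the sum of the striatum markers, while Cd3e was highest in replicate 1. Which cells carried Cd4 was not tested. B cell markers summed to 0.334 to 0.535 CPM in Gls1_CamkIIaCre and 0.408 to 1.26 CPM in control, and none was tested. Monocyte and neutrophil markers summed to 1.45 to 2.41 CPM in Gls1_CamkIIaCre and 1.73 to 2.76 CPM in control, with 0 of 2 tested called by edgeR, DESeq2 or limma voom and 0 at an unadjusted p under 0.05. Dendritic cell markers summed to 23.6 to 28.8 CPM in Gls1_CamkIIaCre and 21.0 to 23.2 CPM in control, most of it Zbtb46, the marker that rose among 4 tested.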

How the data were processed

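Bulk RNA sequencing covered prefrontal cortex of 3 Gls1_CamkIIaCre and 3 control mice. Per the labels' protocols, TRIzol total RNA went into the SMARTer mRNA-Seq preparation. The submitters' processing notes name GRCm38 (mm10) as the genome build. Not given in the sources used here are the aligner, the counter, the strand setting and the FPKM tool.

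Whole-number counts per gene were deposited by the authors, and FPKM values (fragments scaled to gene length and library size) of the same libraries. The test on counts was edgeR 4.0.16 under R 4.3.3 (TMM factors, filterByExpr, robust glmQLFit and glmQLFTest, no covariate), with Benjamini-Hochberg adjustment over 14440 genes and a threshold of 0.05. FPKM values served for ratios between genes and, with limma 3.58.1 on log2(FPKM + 1) or log2(FPKM + 0.1) over genes of mean FPKM 0.1 or more, as alternatives. The remaining alternatives were edgeR with upper-quartile factors or with DESeq2 size factors, limma voom, DESeq2 1.42.0, no filter or a mean of 50 counts, the replicate number as a block, a non-robust fit, other thresholds and leaving out each library. Intervals are 95% intervals of the edgeR log2 fold change. Library totals lay between 17987807 and 19330961 counts, and the common biological coefficient of variation was 4.75%. The procedure was also tested on simulated counts.

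The 10 genes and the lists around them were chosen with earlier results of these data known. Genes named are all 10, the called genes of each list (the 6 of smallest p where more were called, the 1 of smallest p where none was), the 5 nearest profiles, and marker genes as checks. Psmb6, Psme1, Psme2, H2-Aa, H2-Ab1, H2-Eb1, Ciita, Lilrb4a, the interferons and C4b were named in addition, after their values were seen. The 2 class I motifs were read from the H2-K1 window, the interferon consensus after the sequences had been seen. Coordinates and sequences are from RefSeq (GRCm38.p6), and shared 50-base stretches are from GENCODE M21 transcripts. Within a group, libraries were farther apart than sampling noise allows (chi-square per degree of freedom 2.25 to 4.05), and each was kept as 1 sample. The transcript of the targeted gene and some other genes of the lists are not reported here.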

Additional observations from a re-analysis of the deposited data

How the results depend on the processing

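All 10 antigen presentation genes kept a negative log2 fold change under each of the 19 alternatives that could be fitted for them, except Tap2, which had 0.056 without Gls1_CamkIIaCre replicate 2 and 0.075 without control replicate 1 (-0.18 to 0.075 over the libraries left out) and passed in no setting. Brackets give the share of all tested genes called lower in the same setting. The number called was 3 with limma voom (3.86%), DESeq2 size factors in edgeR (4.19%) and upper-quartile factors (5.19%). It was also 3 with no filter (4.04%) and with the filter of 50 counts (4.66%), where Psmb9 was not tested. DESeq2 called 6 (3.26%), and a non-robust fit 7 (3.84%), with H2-K1, H2-D1, B2m and Cd74 among the 7. The number was 5 with log2(FPKM + 1) (3.58%), 5 with log2(FPKM + 0.1) (3.71%) and 0 with log2(FPKM + 1) and no filter (1.14%). At a threshold of 0.1 it was 6 (6.68%) and at 0.01 it was 1 (1.44%). Leaving out each library in turn gave 1 to 5, beside 1.49% to 3.72%. Tap1 lost its call in 1 of 19 alternatives, the unfiltered log2(FPKM + 1) fit (adjusted p = 0.0914), Psmb8 in 6 and Tapbp in 7. The causes were not tested.

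Of all genes, 1190 were called (571 higher, 619 lower), against 634 (109 higher, 525 lower) with log2(FPKM + 1), 654 (111 higher, 543 lower) with log2(FPKM + 0.1), 236 (36 higher, 200 lower) with log2(FPKM + 1) and no filter, 1862 at a threshold of 0.1 and 402 at 0.01, and 415 to 1098 without each library in turn. DESeq2 called 914, limma voom 1097 and the non-robust fit 1022. Upper-quartile factors gave 1178, with 429 higher and 749 lower. With the replicate number as a block, 1758 genes and 7 of the 10 were called, beside 6.2% of all genes called lower. Deviations of same-numbered mice correlated at 0.139, -0.0263 and 0.140, and not every library correlated best with its own number, so the numbers were not taken as pairs. Depth limits Psmb9 most, at 22 to 63 counts a library.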
